A study of Mus musculus with 8 samples.

Results

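The genes that make, carry, sense or break down N-acetylaspartylglutamate (NAAG) were followed, 7 in all, in the retina of Rbfox2 KD and control mice. They were picked by symbol from the deposited gene table and are Folh1 and Aspa (hydrolysis), Nat8l, Rimkla and Rimklb (synthesis), Slc17a5 (vesicular transport) and Grm3 (receptor). All 7 were among the 17500 genes of the table, and all 7 passed the filter on low counts that left 16797 genes to test. Folh1 was chosen because of its difference between these groups, so its difference, fold and adjusted p are given as a description that supports nothing, while the other 6 were taken as its pathway partners. Whole retinas of C57BL/6J mice aged 6 months were sequenced as poly(A)-selected RNA libraries, 1 library per mouse. The 4 Rbfox2 KD mice (M893, M901, M902 and M909) were Rbfox2 fl/fl and carried a tamoxifen-activated Cre transgene, with which deletion was not designed to be limited to a retinal cell type. The 4 controls (M833, M894, M896 and M898) were age-matched heterozygous Rbfox2 fl/+ mice according to the methods of the study, and the sample labels give tamoxifen 4 months for every mouse, controls included. The methods describe tamoxifen or a corn oil vehicle without tying them to these groups, so whether the controls received tamoxifen is unclear, and whether they carried Cre is not given in the sources used here.

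The total count per library was between 160630226 and 211283591. The targeted gene, Rbfox2, had 144 to 157 CPM (the usual scaled count, here relative to the TMM-normalised library size) in controls and 53.6 to 59.4 CPM in Rbfox2 KD retinas, so the groups did not overlap and transcript remained. M901 and M902 stood apart as the only libraries with high Xist (277506 and 275967 counts, against 312 to 426 in the other 6). Both were Rbfox2 KD mice and no control had high Xist, so this difference was not balanced between the groups. Members whose values moved by over 1.5 times or turned without M901 and M902 are given without them as well. Of the markers of the tissue, the 8 rod genes were all detected.

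NAAG is among the most abundant peptides of the mammalian nervous system. Its precursor N-acetylaspartate (NAA) is made in neurons from aspartate and acetyl-CoA, and NAAG is formed from NAA and glutamate by ATP-dependent ligases. After release NAAG acts on the inhibitory metabotropic receptor mGluR3, and it is cleaved outside the cell to NAA and glutamate by glutamate carboxypeptidase II, a membrane peptidase that in the brain is carried mainly by astrocytes. In the retina, NAAG has been described in ganglion cells.

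Because Rbfox proteins bind the RNA sequence UGCAUG, the transcript of each gene was searched for it on the transcript strand, written TGCATG. The spliced GENCODE transcript with the RefSeq accession of the table was used. Introns, where the study also places this element, were not searched. Each of the 7 transcripts held at least 1 match, and 53.2% of 14353 transcripts of all lengths searched in the same way did. Among 3127 transcripts of 2500 to 3500 bases, the length class of the Folh1 transcript (3125 bases), 52.5% did. The transcripts of Nat8l, Rimklb and Rimkla were longer (6529, 4725 and 4097 bases), so these shares are not matched to all 7. Folh1, Aspa, Rimkla and Slc17a5 held 1 match each, Rimklb and Grm3 held 2 each, and Nat8l held 9, of which 8 were in its 3′ UTR. Among 587 transcripts of 6000 to 7000 bases, the length class of the Nat8l transcript (6529 bases), 0.341% had at least that many, Nat8l included. The match of Folh1 lies in coding exon 2 of 19 (GRCm38 chr7:86773232-86773237, minus strand), that of Slc17a5 in coding exon 8 of 11 (chr9:78557542-78557547, minus strand), and the Nat8l match shown last lies in exon 3 of 3, in the 3′ UTR (chr5:34005867-34005872, plus strand). They are shown for the gene that differed between the groups, the partner with the lowest p and the transcript with the most matches, 5′ to 3′ with the match in capitals.
Folh1: aaggagttttTGCATGaattgaaggc
Slc17a5: ctgttggttaTGCATGatcctctgtg
Nat8l: tacccctgccTGCATGgcccccaatg
These matches are descriptions of sequence, and binding was not measured.

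Folh1 (chromosome 7 of GRCm38, 86718977 to 86775943, minus strand) encodes glutamate carboxypeptidase II. In controls it had 20.2 CPM in M833, 22.9 in M894, 25.2 in M896 and 25.8 in M898. In Rbfox2 KD retinas it had 14.8 CPM in M909, 14.6 in M893, 15.5 in M902 and 15.9 in M901. The 4 Rbfox2 KD values lay close together and below all 4 controls, and the controls were the more variable group (coefficient of variation 10.7% against 3.82%). The means were 23.5 ± 2.52 CPM (SD, n = 4) in controls and 15.2 ± 0.581 CPM (SD, n = 4) in Rbfox2 KD retinas, a log2 fold change of -0.63 (standard error 0.075). Each library had between 2464 and 4818 Folh1 counts, so counting error was small beside the spread between controls. It was not small beside the narrow spread of the Rbfox2 KD mice. There the 95% counting intervals of M893 (14.1 to 15.2 CPM) and M902 (14.9 to 16.2 CPM) overlapped, while that of M901 (15.3 to 16.4 CPM) lay above that of M893. The log2 fold change ranged from -0.70 to -0.58 with each mouse left out in turn and was -0.68 without M901 and M902.

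Cell type markers were read beside Folh1. Müller glia are the principal glia of the retina. Of 10 Müller markers 0 passed an adjusted p of 0.05 in the edgeR quasi-likelihood fit. In that fit 3 had an unadjusted p under 0.05, all lower in Rbfox2 KD retinas. The share of all genes at that unadjusted p was 13.3%. DESeq2 called 2 of the 10 markers, against 2.77% of all genes, and the edgeR likelihood ratio test 1, against 0.976%. Of the 10, 7 had a negative log2 fold change (49.3% of all genes did) and 3 a positive one, with a median of -0.09. Among them were Slc1a3 at -0.04, Sox9 at -0.0028 and Rlbp1 at 0.05. Their summed level was 6417 to 7133 CPM in controls and 5713 to 6460 CPM in Rbfox2 KD retinas, overlapping ranges. Of the 10, 2 had groups that did not overlap, against 7.03% of all genes (3.39% in the lower direction). They were Glul and Car14, named after their values were seen. Glul, glutamine synthetase, had 3214 to 3565 CPM in controls against 2946 to 3083 CPM (log2 fold change -0.17, standard error 0.048, adjusted p = 0.221 in the edgeR quasi-likelihood fit and 0.0107 with DESeq2). Car14, a membrane carbonic anhydrase, had 75.7 to 101 CPM against 60.0 to 68.6 CPM (-0.44, standard error 0.080, adjusted p = 0.0862 in the edgeR quasi-likelihood fit and 3.51e-05 with DESeq2). The 5 astrocyte markers summed to 48.5 to 50.9 CPM in controls and 42.8 to 50.6 CPM in Rbfox2 KD retinas, and the 8 endothelial and pericyte markers to 248.6 to 277.8 and 226.4 to 291.6 CPM, of which Kdr made up 192 CPM in the control mean. Of these 8, 6 had a negative log2 fold change (49.3% of all genes did), with a median of -0.25. In the edgeR quasi-likelihood fit 2 had an unadjusted p under 0.05, against 13.3% of all genes, and 0 passed after adjustment. DESeq2 called 1 of the 8, against 2.77% of all genes. The pericyte marker Rgs5 had groups that did not overlap (log2 fold change -0.34, standard error 0.080, adjusted p = 0.176 in the edgeR quasi-likelihood fit and 0.00544 with DESeq2), and Pecam1 had -0.25 (adjusted p = 0.359). The part of these differences in the level of Folh1 was not tested, and in RNA of whole retina fewer cells of a type and less RNA per cell cannot be told apart.

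Aspa (chromosome 11, 73304992 to 73329596, minus strand) encodes aspartoacylase, which splits NAA into acetate and aspartate and in the brain is typical of oligodendrocytes. Controls had 0.519 CPM in M833, 0.549 in M894, 0.528 in M896 and 1.40 in M898. Rbfox2 KD retinas had 0.568 CPM in M909, 0.699 in M893, 0.403 in M902 and 0.285 in M901. M898 stood alone at the top with 248 counts, and the groups overlapped. The log2 fold change was -0.61 (standard error 0.39, 95% confidence interval -1.48 to 0.25, adjusted p = 0.529 in the edgeR quasi-likelihood fit, Benjamini-Hochberg over all genes tested), and it was -0.12 without M898 and -0.24 without M901 and M902. The 7 of 11 oligodendrocyte markers in the table summed to 51.7 to 55.0 CPM in controls and 53.3 to 57.5 CPM in Rbfox2 KD retinas, with Mbp giving most of it and the lineage factor Olig1 at no more than 0.0467 CPM in any mouse.

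Synthesis begins with Nat8l (chromosome 5, 33995984 to 34005916, plus strand), the NAA synthase. It had 85.5 CPM in M833, 98.5 in M894, 103 in M896 and 97.6 in M898, and among Rbfox2 KD retinas 80.8 in M909, 97.7 in M893, 91.4 in M902 and 95.1 in M901. The groups overlapped over most of their range, with the lowest value in an Rbfox2 KD mouse and the next in a control. The log2 fold change was -0.08 (standard error 0.069, 95% confidence interval -0.23 to 0.08, adjusted p = 0.670 in the edgeR quasi-likelihood fit), -0.13 without M833 and -0.02 without M909. Over single mice left out it ran from -0.13 to -0.02.

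Rimkla (chromosome 4, 119465283 to 119492628, minus strand) and Rimklb (chromosome 6, 122447296 to 122498761, minus strand) encode the ligases that join NAA to glutamate. Rimkla had 53.0 CPM in M833, 64.8 in M894, 66.5 in M896 and 66.9 in M898 among controls. In Rbfox2 KD retinas it had 58.4 in M909, 70.0 in M893, 64.8 in M902 and 72.3 in M901. M833 was the lowest of all 8 mice, well below the other controls, which lay close together. The log2 fold change of Rimkla was 0.08 (standard error 0.085, 95% confidence interval -0.11 to 0.27, adjusted p = 0.726 in the edgeR quasi-likelihood fit), 0.0041 without M833, 0.04 without M901, 0.14 without M909 and 0.03 without M901 and M902.

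Rimklb varied least among the members in controls, with a coefficient of variation of 3.70%. It had 41.4 CPM in M898, 43.0 in M896, 44.6 in M894 and 44.8 in M833 among controls, and 45.1 CPM in M909, 43.0 in M893, 41.9 in M902 and 40.1 in M901 among Rbfox2 KD retinas. Both the highest and the lowest value came from Rbfox2 KD mice. Its log2 fold change was -0.03 (standard error 0.047, 95% confidence interval -0.13 to 0.07, adjusted p = 0.825 in the edgeR quasi-likelihood fit), an interval that leaves out changes of the size of that of Folh1. The direction turned to 0.02 without M901 and M902.

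Slc17a5 (chromosome 9, 78536488 to 78588041, minus strand) encodes sialin, a lysosomal exporter of sialic acid that also loads NAAG into synaptic vesicles. Controls had 13.3 CPM in M833, 12.5 in M894, 12.01 in M896 and 11.2 in M898. Rbfox2 KD retinas had 13.4 CPM in M909, 13.1 in M893, 14.3 in M902 and 13.3 in M901. Of the 4 Rbfox2 KD mice, 3 were above every control, and M893 was below the control M833. On the deposited FPKM scale, which divides by the total count without TMM, the groups did not overlap (3.52 to 4.03 FPKM in controls and 4.06 to 4.36 FPKM in Rbfox2 KD retinas). From the counts, its log2 fold change came to 0.14 (standard error 0.061, 95% confidence interval 0.01 to 0.28). Its p in the edgeR quasi-likelihood fit was 0.0413 unadjusted and 0.361 adjusted, so it did not pass.

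Grm3 (chromosome 5, 9485541 to 9725170, minus strand) encodes mGluR3, a receptor coupled to Gi and Go proteins. It had 3.19 CPM in M833, 2.25 in M894, 2.58 in M896 and 2.53 in M898, and 2.73 in M909, 2.72 in M893, 2.10 in M902 and 2.62 in M901. The ranges overlapped, with a control highest and an Rbfox2 KD mouse lowest. The log2 fold change was -0.05 (standard error 0.13, 95% confidence interval -0.35 to 0.24, adjusted p = 0.8999 in the edgeR quasi-likelihood fit). It changed sign without M833 (0.05), without M902 (0.03) and without M901 and M902 (0.04).

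**Figure D1:**
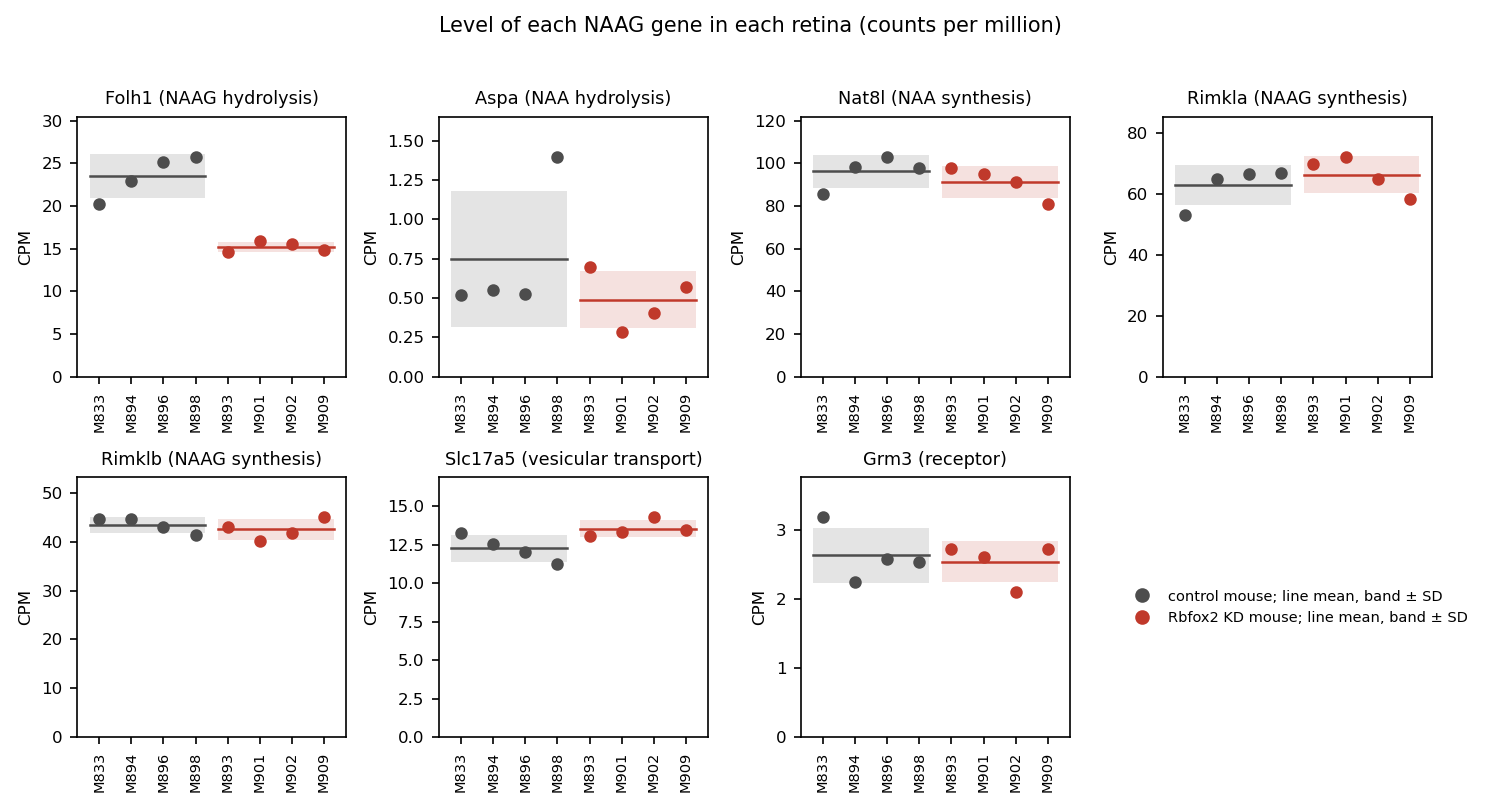
Level of each gene in CPM in each of the 8 mice, with the axis from 0; each point is a mouse, lines are group means and bands ± SD. Folh1 in the 4 Rbfox2 KD mice lies between 14.6 and 15.9 CPM, below all controls, whereas in the other 6 genes the groups overlap on this scale.

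Of the 7 members, Folh1 had an adjusted p under 0.05 (0.0195), which was the reason for its choice, so nothing is read from that count. Over all genes tested 0.0655% passed (0.0298% in the lower direction), and the nearest member outside the threshold was Slc17a5. Of the other 6, 0 passed with the edgeR quasi-likelihood test or limma-voom, 0 with DESeq2, which called 2.77% of all genes, and 0 with the edgeR likelihood ratio test, which called 0.976%, and 1 of 6 (Slc17a5) had an unadjusted p under 0.05, against 13.3% of all genes. On the CPM scale the groups overlapped in each of these 6, while they did not overlap in 7.03% of all genes tested (3.39% lower and 3.64% higher in Rbfox2 KD retinas). The median log2 fold change over the 7 was -0.05, and over all genes 0.0016. The edgeR call of Folh1 was lost without M896, M898 or any of the 4 Rbfox2 KD mice (adjusted p 0.0547 to 0.103 over these fits) and without M901 and M902 (0.204).

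Levels per kilobase were compared between the genes on the deposited FPKM scale, the count divided by gene length and by the total count of the library. In controls the order was Rimkla (15.6 ± 1.82 FPKM), Nat8l (14.8 ± 1.33), Rimklb (10.9 ± 0.328), Folh1 (7.78 ± 0.924), Slc17a5 (3.80 ± 0.222), Grm3 (0.749 ± 0.102) and Aspa (0.492 ± 0.290), each mean ± SD with n = 4. The synthesis genes were thus the highest and the receptor and aspartoacylase the lowest, with Folh1 at the 52.9th percentile of all genes and Aspa at the 17.3rd. Rimkla and Nat8l did not differ beyond their spread, since Rimkla was the higher in 3 of 4 controls, and the same held for Grm3 over Aspa, where M898 was the exception. In Rbfox2 KD retinas these pairs had the same order in 4 of 4 mice. On this FPKM scale the other 4 neighbouring pairs kept their order in 4 of 4 controls. In Rbfox2 KD retinas Folh1 was 4.96 ± 0.153 FPKM (SD, n = 4), which left it above Slc17a5 (4.15 ± 0.144 FPKM) in 4 of 4 mice, but closer than in controls. The ratio of Rimkla to Rimklb FPKM ran from 1.17 in M833 to 1.60 in M898 among controls and from 1.28 in M909 to 1.78 in M901 among Rbfox2 KD retinas.

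**Figure D2:**
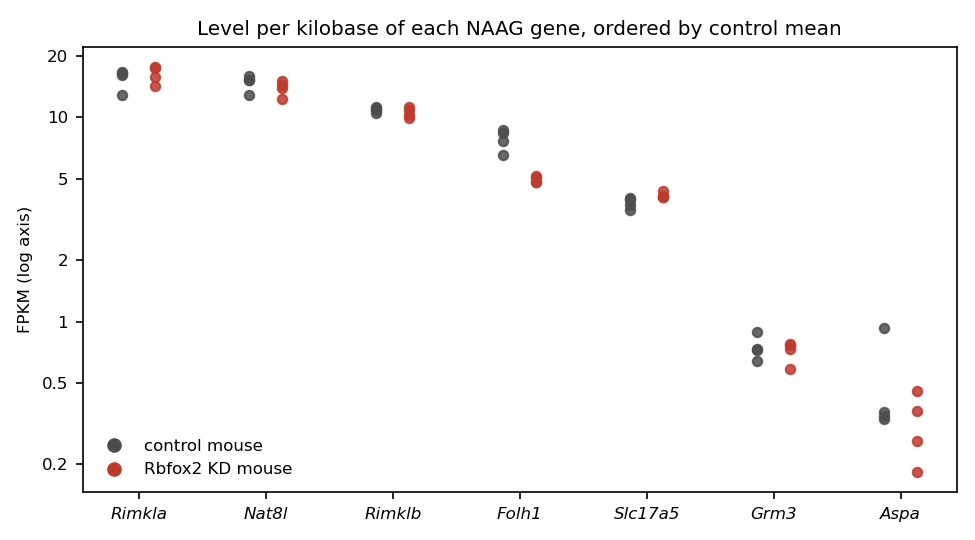
FPKM of each gene on a log axis, 1 point per mouse, genes ordered by the control mean. Rimkla, Nat8l and Rimklb sit above every Folh1 value, the groups do not overlap in Folh1 and, narrowly, in Slc17a5, and Aspa in M898 (0.926 FPKM) lies above the other Aspa values.

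Since M833 was low in Rimkla and M898 high in Aspa, the 6 members other than Folh1 were set beside marker scores of ganglion cells, Müller glia and pigment or ciliary epithelium, each the mean log2(CPM + 1) of the markers relative to the control mean. These 18 relations were chosen after the values had been seen, so their p-values are descriptive. The adjustment over the 18 does not cover that choice. M833 had a ganglion cell score of -0.49, against -0.18 in M909 and 0.004 to 0.19 in the other 6 mice. Nefl, the light neurofilament subunit, had 288 CPM in M833 and 375 to 505.5 CPM elsewhere. Rimkla, as log2(CPM + 1), ran with this score across the 8 mice (Pearson's r = 0.951, exact permutation p = 0.000645, adjusted over the 18 relations 0.0116, two-sided), with Spearman's rho = 0.881 (exact permutation p = 0.00724, adjusted 0.0652). Without M833 and M909, the mice farthest from the median score, r was 0.592 (exact permutation p = 0.233), so the relation rests on these mice. Without M901 and M902 r was 0.976 (exact permutation p = 0.00694). For Nat8l r was 0.813 (exact permutation p = 0.0206, adjusted 0.0767), rho was 0.595 (exact permutation p = 0.132, adjusted 0.339), and r was 0.678 (exact permutation p = 0.235) without M833 and M909.

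Aspa ran with the pigment and ciliary score, with r = 0.850 (exact permutation p = 0.00258, adjusted 0.0232) and rho = 0.929 (exact permutation p = 0.00223, adjusted 0.0401) over 8 mice. Without M898 and M901, the ends of that score, r was 0.547 (exact permutation p = 0.219), so this relation too rests on them, and without M901 and M902 it was 0.763 (exact permutation p = 0.0458). The 10 pigment and ciliary markers summed to 80.7 to 448.6 CPM in controls and 54.9 to 163 CPM in Rbfox2 KD retinas. Dct, a melanin synthesis enzyme, had 224 CPM in M898 and 4.78 CPM in M901, which had the highest and the lowest Aspa. Of the other relations with an unadjusted p under 0.05 for r (Aspa and Slc17a5 with Müller markers, Slc17a5 with pigment and ciliary markers), 0 of 3 passed after adjustment. Taken as deviations from the group means, with mice permuted within each group, r was 0.972 for Rimkla with ganglion cell markers (exact permutation p = 0.00174, the smallest the 576 permutations can give, adjusted 0.0156). It was 0.908 for Nat8l with the same markers (exact permutation p = 0.0139, adjusted 0.0833) and 0.814 for Aspa with pigment and ciliary markers (exact permutation p = 0.00174, adjusted 0.0156). The fits on deviations kept all 8 mice, M833 and M898 included. The part of ganglion cell and pigment or ciliary RNA in the levels of these genes was not tested.

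**Figure D3:**
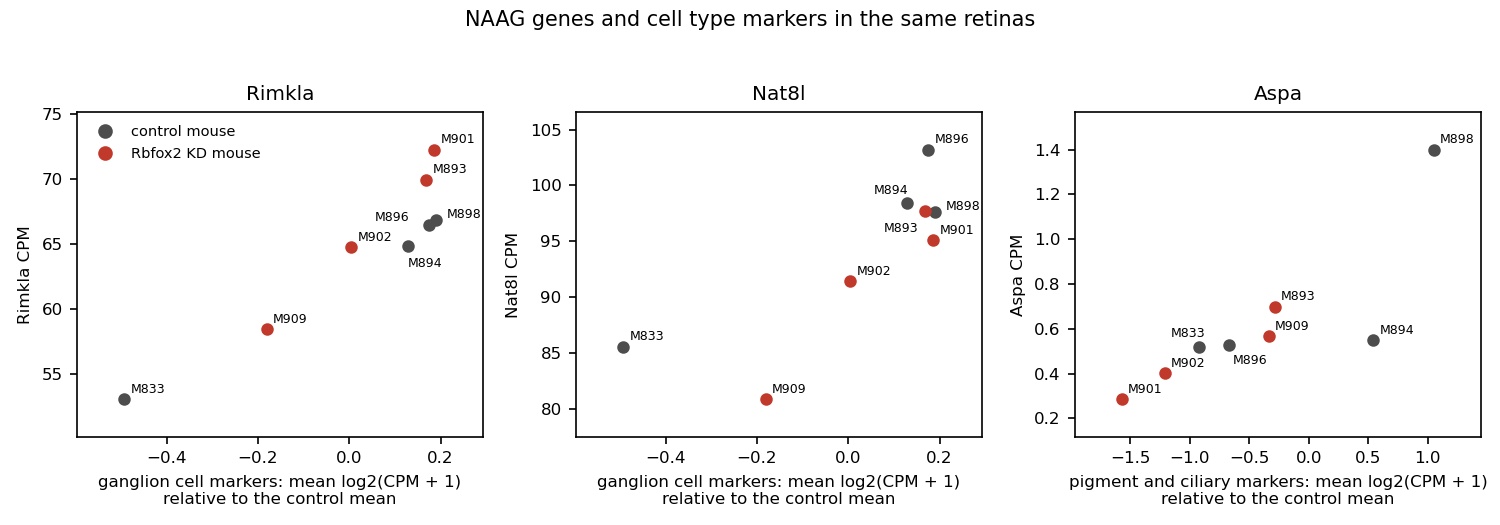
CPM of Rimkla, Nat8l and Aspa against the marker score of the same mouse (mean log2(CPM + 1) relative to the control mean), 1 labelled point per mouse. M833, at a ganglion cell score of -0.49, has the lowest Rimkla (53.0 CPM), and M898, at the highest pigment and ciliary score, has the highest Aspa (1.40 CPM).

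Genes around NAAG metabolism were read from 7 lists. With the edgeR quasi-likelihood test 0 genes passed in any of them at an adjusted p under 0.05. Relatives of Folh1 (M28 peptidases and transferrin receptors) had 8 of 9 genes in the table, of which 7 had a negative log2 fold change (49.3% of all genes did), with a median of -0.10. An unadjusted p under 0.05 was reached by 3 of the 8, against 13.3% of all genes, and DESeq2 called 0. Naalad2, the peptidase closest to Folh1 and also able to cleave NAAG, was scarce, with 0.655 to 0.846 CPM in controls and 0.493 to 0.654 CPM in Rbfox2 KD retinas. Its groups were separated by a narrow margin (log2 fold change -0.49, standard error 0.16, adjusted p = 0.273 in the edgeR quasi-likelihood fit). Naaladl1 was near the detection limit (0.0573 ± 0.0355 CPM in controls, SD, n = 4, log2 fold change 0.04), Tfrc, the transferrin receptor, had a log2 fold change of -0.09 (adjusted p = 0.680), and the exopeptidase Cpq and glutaminyl cyclase Qpct had -0.33 and -0.10 with adjusted p of 0.374 and 0.366 in the edgeR quasi-likelihood fit.

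Of 11 genes for the supply and uptake of NAA and NAAG and the use of the products, 3 had an unadjusted p under 0.05 (13.3% of all genes did), 1 higher and 2 lower, and the median log2 fold change was -0.01. Acy1, the acylase that removes acetyl groups from most N-acetylated amino acids other than aspartate, had 11.7 to 12.7 CPM in controls and 13.6 to 14.8 CPM in Rbfox2 KD retinas (log2 fold change 0.23, standard error 0.050, adjusted p = 0.147 in the edgeR quasi-likelihood fit). Acss1, the mitochondrial acetyl-CoA synthetase that uses acetate, had 0.548 to 0.926 CPM in controls and 0.275 to 0.547 CPM in Rbfox2 KD retinas (-0.98, standard error 0.25, adjusted p = 0.192). DESeq2 called 2 genes of this list, against 2.77% of all genes, and the likelihood ratio test 1, against 0.976%. That 1 gene was Acss1, close to the threshold (adjusted p = 0.0485 in the likelihood ratio test). The dicarboxylate transporter Slc13a3, which takes up NAA, had -0.86 with a standard error of 0.41. Its control values ran from 3.02 CPM in M896 to 7.78 CPM in M898, the mouse with the highest pigment and ciliary score. A relation of Slc13a3 to that score was not tested.

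Of the 7 metabotropic glutamate receptors other than Grm3, 2 had an unadjusted p under 0.05 (13.3% of all genes did), 1 in each direction, and DESeq2 alone called 2 (2.77% of all genes). Grm5, a Gq-coupled receptor, had 31.5 to 36.8 CPM in controls and 29.5 to 30.7 CPM in Rbfox2 KD retinas (log2 fold change -0.21, standard error 0.051, adjusted p = 0.178 in the edgeR quasi-likelihood fit). Grm8, an autoreceptor of glutamatergic terminals, had 34.2 to 37.1 CPM in controls and 38.9 to 42.4 CPM in Rbfox2 KD retinas (0.18, standard error 0.045, adjusted p = 0.179). Grm2, the receptor most like Grm3, had 24.1 ± 1.51 CPM (SD, n = 4) in controls and 24.2 ± 0.881 CPM (SD, n = 4) in Rbfox2 KD retinas. Among 5 Gi and Go subunits and 8 SLC17 transporters, 0 genes had an unadjusted p under 0.05, and the log2 fold changes of the subunits lay between -0.07 and 0.05. The genes with the lowest p were Gnaz and Gnai3 (log2 fold changes -0.06 and -0.07) and Slc17a1 and Slc17a2 (0.33 and 0.56), with adjusted p of 0.439 to 0.560 in the edgeR quasi-likelihood fit.

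Glutamate carboxypeptidase II also trims polyglutamated folate, and of 25 genes of folate uptake and one-carbon metabolism 24 were tested, with a median log2 fold change of -0.02. Of these, 5 had an unadjusted p under 0.05 (13.3% of all genes did), 4 lower and 1 higher, and DESeq2 called 3 (2.77% of all genes). Mthfd1l, the mitochondrial formyltetrahydrofolate synthetase, had 12.6 to 14.4 CPM in controls and 10.7 to 11.4 CPM in Rbfox2 KD retinas (-0.27, standard error 0.056, adjusted p = 0.127 in the edgeR quasi-likelihood fit). Shmt2, the mitochondrial serine hydroxymethyltransferase, had 34.6 to 37.6 CPM in controls and 39.4 to 43.8 CPM in Rbfox2 KD retinas (0.19, standard error 0.048, adjusted p = 0.181), and its cytosolic counterpart Shmt1 had 0.735 to 1.46 and 0.436 to 0.659 CPM (-0.90, standard error 0.24, adjusted p = 0.207). The enzymes that add and remove the glutamate tail inside the cell, Fpgs and Ggh, had log2 fold changes of -0.03 and 0.07 (adjusted p = 0.887 and 0.712 in the edgeR quasi-likelihood fit). Of 7 sialic acid genes, which share sialin's other substrate, 0 had an unadjusted p under 0.05, and the lowest p were those of the sialidase Neu1 (0.09, adjusted p = 0.401) and Gne, which starts sialic acid synthesis, (0.07, adjusted p = 0.504).

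**Figure D4:**
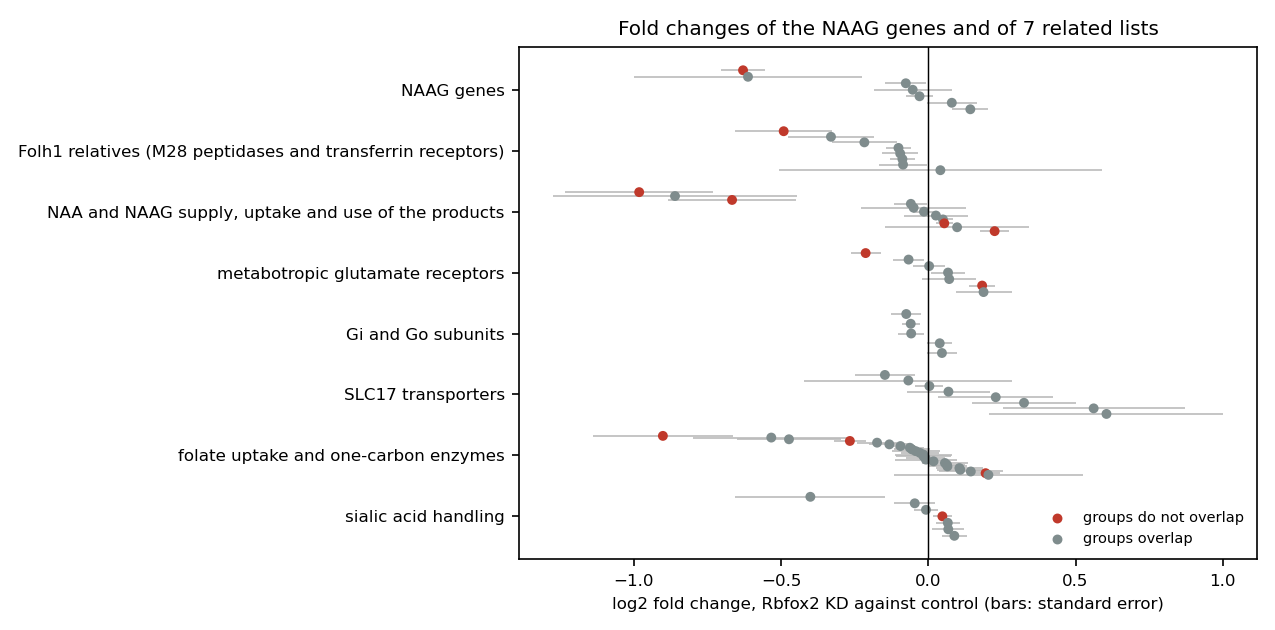
Log2 fold change of each tested gene (Rbfox2 KD against control, bars standard errors) in the NAAG genes and the 7 lists, 1 point per gene. Red points mark genes whose groups do not overlap, and Folh1, Acss1, Acy3, Shmt1 and Naalad2 are those below -0.4.

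The genes whose pattern over the 8 mice was most like that of Folh1 were taken by Pearson's r of log2(CPM + 1) among 13755 genes with a mean of at least 1 CPM. This pattern includes the difference Folh1 was chosen for, and r is a description over 8 libraries in 2 groups. The highest were Gata2 (r = 0.986), a transcription factor of blood and endothelial lineages, Nr3c2 (0.973), the mineralocorticoid receptor, Ncstn (0.964), a subunit of γ-secretase, Sox17 (0.964), a transcription factor of endothelium, and Ly6c1 (0.962), a surface antigen. The lowest were Nmnat1 (-0.980), a nuclear NAD synthesis enzyme, Pla2g7 (-0.965), a secreted phospholipase, and R3hcc1l (-0.963). Gata2, Sox17 and Ly6c1 had mean levels of 1.85, 2.47 and 6.89 CPM in controls and 1.09, 1.63 and 4.72 CPM in Rbfox2 KD retinas. In all, 78 genes had r over 0.9 and 119 had r under -0.9. Of the other members with at least 1 CPM, Nat8l had r = 0.516 to Folh1, Rimklb 0.0382, Grm3 -0.0383, Rimkla -0.059 and Slc17a5 -0.832.

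The measured genes nearest to Folh1 on chromosome 7 lay at a distance (RefSeq positions on GRCm38). On the lower side were Zfand6 (84615045 to 84690016, log2 fold change 0.17, adjusted p = 0.189 in the edgeR quasi-likelihood fit) and 2610206C17Rik (84689640 to 84776549, -0.14, adjusted p = 0.919). On the upper side were Nox4, an NADPH oxidase (87244430 to 87398710, -0.67, adjusted p = 0.442), and Tyr, the melanin enzyme tyrosinase (87424771 to 87493512, -1.43, adjusted p = 0.398). Tyr had 5.73 ± 5.46 CPM (SD, n = 4) in controls and 2.12 ± 0.955 CPM (SD, n = 4) in Rbfox2 KD retinas, a spread between controls as large as their mean.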

How the data were processed

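Mouse retinal poly(A) libraries, prepared with the Nugen Universal Plus kit, were aligned by the authors to mm10 with STAR, and uniquely mapped fragments were counted per gene with HTSeq. The methods name a RefSeq and an Ensembl annotation, and the submitters' processing notes name CASAVA 1.8.2 and edgeR. The authors deposited raw counts and FPKM, and each of 17500 genes had 1 length in its FPKM (tolerance 0.1%). The table's log2 fold changes and p-values hold the authors' own comparison and were not used, nor was its adjusted signal.

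Counts were filtered with filterByExpr, TMM-normalised and fitted with edgeR 4.0.16 for its quasi-likelihood F test (R 4.3.3), without covariates, with Benjamini-Hochberg adjustment over 16797 genes, and intervals use the test's degrees of freedom. Dividing each log2 fold change by the root of its F statistic gave the standard error. In simulated counts with a fold of 2 in 200 of 16714 genes, 190 changed genes and 9 others were called, and with no change 0 of 16718. Scarce genes were not among those changed, and the fold was above that estimated for any member. Power for smaller folds or scarce genes was therefore not tested. Alternatives were DESeq2 1.42.0, the likelihood ratio test, limma-voom (limma 3.58.1), other normalisations and filters, and libraries left out. Marker relations were also computed on deviations from group means, an alternative added after the data were seen. Positions are from GENCODE M21 (GRCm38), and neighbours from RefSeq.

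Labels name 1 mouse per library, and no pair agreed within sampling noise. Named genes were the 7 members, listed genes with an adjusted p under 0.05 or else the 2 with the lowest p, with Naalad2, Naaladl1, Tfrc, Grm2, Fpgs and Ggh always, the 5 highest and 3 lowest by r to Folh1, the 2 measured genes on either side of Folh1 and Rbfox2. Glul, Car14, Slc1a3, Sox9, Rlbp1, Kdr, Rgs5, Pecam1, Pdgfrb, Cldn5, Mbp and Olig1 were named after their values were seen. So were Nefl, Dct, Cpq, Acy3, Slc13a3 and Shmt1. The members and lists were chosen with earlier results of these data known. Naaladl2 was not analysed here. At this depth 3 counts are 0.0144 to 0.0189 CPM (counting error only), so precision is limited mainly by 4 mice per group.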

Additional observations from a re-analysis of the deposited data

Results flagged for a closer look

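Of 20 groups of 4 mice examined (the 7 genes and 3 marker scores in each group), 3 held a mouse far from the rest of its group by Dixon's criterion, and chance alone gives about 1 in 20. Aspa had 1.40 CPM in the control M898 and 0.519 to 0.549 CPM in the other controls. Rimkla had 53.0 CPM in the control M833, against 64.8 to 66.9 CPM in the others. The ganglion cell marker score of the control M833 was -0.49, against 0.13 to 0.19 in the others, in the same mouse as the low Rimkla.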

How the results depend on the processing

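Rimklb changed direction without M901 and M902 (log2 fold change 0.019), and Grm3 without control M833 (0.0496), without Rbfox2 KD M902 (0.0272) and without M901 and M902 (0.0448), with a range of -0.1221 to 0.0496 over single mice left out, each far from the threshold in every setting. Folh1, Aspa, Nat8l, Rimkla and Slc17a5 kept their direction in 17 of 17 alternatives, and Aspa, Nat8l, Rimkla, Rimklb, Slc17a5 and Grm3 passed in 0 of 17. The number of the 7 genes called ranged from 0 to 1 with each mouse left out (0 without M896, M898, M893, M901, M902 or M909) and was 0 without M901 and M902. Over all genes 11 calls became 465 with DESeq2 and 164 with the likelihood ratio test, 5 to 35 with each mouse left out (35 without M833, 19 without M894) and 1 without M901 and M902; the cause was not tested. DESeq2 called 2 genes of NAA and NAAG supply, 2 metabotropic receptors and 3 folate genes, and the likelihood ratio test 1 supply gene, against 0. The order of the control mean levels was the same with GENCODE lengths and without each control. With GENCODE lengths Rimklb and Folh1 lay close in controls (means of 7.72 and 7.33 CPM per kilobase). The order of this pair in single mice therefore depends on the length used. Of the 5 genes most like Folh1, 0 were shared under Spearman's rho and 0 under deviations from the group means. No paired analysis was possible because replicate numbers were given in accession order and pair no mice. The precision of these genes is limited mainly by 4 mice per group.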
